A study of Schmidtea mediterranea with 9 samples.

Results

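The 200 single-contig transcripts whose level varied least were examined in neoblasts, the dividing stem cells of the flatworm Schmidtea mediterranea (a planarian). The reads were counted on assembled contigs, which the assembler groups into components, its unit closest to a gene. Of 46724 components, 39535 have 1 contig. Levels are CPM, reads scaled to 1000000 mapped reads of the library, with the most abundant component, comp0_c0, left out of the total. After the 100 single-contig components of highest mean level were dropped, 3748 had a mean of at least 20 CPM and are called eligible. The members are the 200 of these with the lowest coefficient of variation (the SD as a percentage of the mean) over all 9 libraries. These levels chose the members, so their steadiness and the small differences between groups are a description and carry no test.

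Neoblasts are the dividing cells of the adult planarian, and their progeny replace the tissues lost to a wound. Transcripts with an even level across samples are used as internal references in quantitative PCR and as an anchor when libraries of different depth are scaled to each other. Genes for basic cell functions, such as protein synthesis and turnover, are commonly taken for this purpose. The files do not pair components with gene names, so 0 of the neoblast, lineage and reference genes listed for these cells could be matched. The identity of the sorted cells was therefore not checked against markers, and members are given by identifier with no role.

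The animals were of the asexual strain and had been starved. Tissue anterior to the pharynx was dissociated, viable cells holding over a diploid amount of DNA were sorted, and their RNA was sequenced. The 3 groups of 3 libraries are uninjured animals (the 0 h control), animals 48 h after amputation of the head (anterior wound) and animals 48 h after amputation of the tail and pharynx (posterior wound). The samples hold no uninjured animals of the 48 h time point, and so the wound and the elapsed time cannot be told apart. The RNA is from many cells, so fewer cells with a transcript and less of it per cell cannot be told apart either.

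Mapped reads numbered between 14674800 in control replicate 1 and 23700877 in control replicate 3. The most abundant component held between 9.19% and 16.9% of them. Control replicate 1 stood apart from the other libraries. It was the lowest of the 9 libraries at 40.1% of the eligible components and the highest at 25.7%, and 11.4% of its reads were unmapped, against 3.96% to 5.46% elsewhere. The choice of members, the variation of the eligible components, the choices on single groups and the shares by length are therefore also given without it, an alternative chosen after seeing the data for all but the first.

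The steadiest component, comp1741_c0 (2494 bases), varied by 2.36% over the 9 libraries around a mean of 141 ± 3.32 CPM (SD, n = 9). Its 3 control libraries, in order of replicate number as below, held 136, 138 and 144 CPM, and it lay at 144, 138 and 137 CPM after the anterior wound, and at 145, 143 and 141 CPM after the posterior wound. The 3 groups overlapped, and the highest library was 1.06 times the lowest. The next, comp4801_c0 (1144 bases), stood at 35.0, 34.2 and 34.2 CPM in the controls, at 34.6, 34.0 and 34.6 CPM after the anterior wound, and at 32.9, 32.8 and 35.3 CPM after the posterior wound. Posterior replicates 1 and 2 were its lowest libraries and posterior replicate 3 its highest, so the groups overlapped here as well.

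The component comp1077_c0 (692 bases) lay at 41.2, 40.4 and 41.1 CPM in the controls, at 42.8, 41.6 and 40.5 CPM after the anterior wound, and at 42.0, 40.4 and 43.2 CPM after the posterior wound. The component comp3714_c0 (1994 bases) lay at 154, 150.2 and 141 CPM in the controls, at 146, 149 and 147 CPM after the anterior wound, and at 150.5, 151 and 151 CPM after the posterior wound. At the first the lowest library was control replicate 2 and the highest posterior replicate 3, and at the second both extremes were controls. The component comp2817_c0 (1937 bases) lay at 68.4, 68.8 and 65.0 CPM in the controls, at 65.3, 69.3 and 68.5 CPM after the anterior wound, and at 67.1, 69.6 and 66.1 CPM after the posterior wound. Its group means of 67.4 ± 2.08, 67.7 ± 2.11 and 67.6 ± 1.81 CPM (SD, n = 3 each) differed by less than the spread within any group.

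Among the 8 steadiest, 3 had higher levels. The component comp1345_c0 (2123 bases) stood at 276, 277 and 286 CPM in the controls, at 278, 277 and 294 CPM after the anterior wound, and at 291, 282 and 295 CPM after the posterior wound. The component comp1397_c0 (2330 bases) stood at 253, 248 and 233 CPM in the controls, at 241, 242 and 241 CPM after the anterior wound, and at 240.3, 250.2 and 235 CPM after the posterior wound. At the first the lowest library was a control and the highest posterior replicate 3, and at the second both extremes were controls. The groups overlapped at both. The most abundant of the 8, comp544_c0 (1727 bases), stood at 557, 499 and 519 CPM in the controls, at 525, 540.2 and 529 CPM after the anterior wound, and at 530.2, 526 and 529.6 CPM after the posterior wound. Its highest and lowest libraries were both controls.

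**Figure D1:**
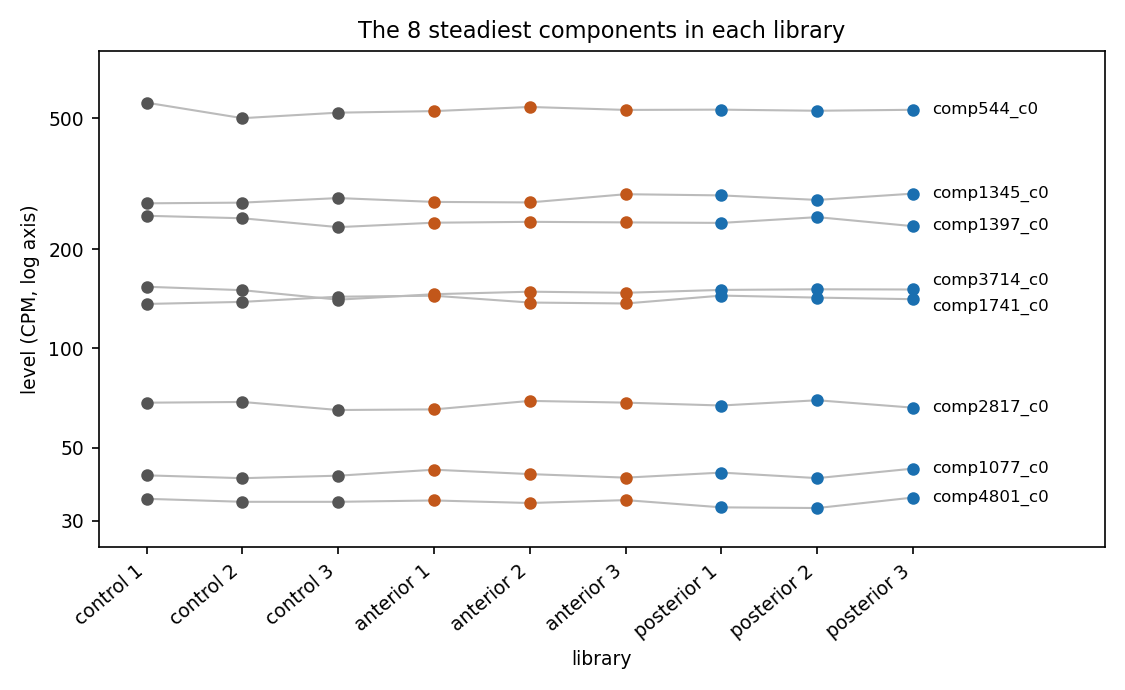
Level of the 8 steadiest components (y axis, CPM on a log axis) in each of the 9 libraries (x axis). Each point is 1 library, coloured grey for the 0 h control, orange for the anterior wound and blue for the posterior wound, and a grey line joins the points of a component. The levels range from about 34.2 CPM for comp4801_c0 to 528 CPM for comp544_c0, and no component separates the groups.

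The coefficient of variation of the members ranged from 2.36% to 5.74%, with a median of 4.81%, whereas the median of the eligible components was 12.8%. Over the 8 libraries without control replicate 1 these medians were 4.42% and 9.42%. The threshold falls in a dense part of the distribution. Just inside it were comp2699_c0, comp1827_c0 and comp7015_c0, at 5.74% each, and just outside it comp5349_c0 and comp1143_c0, at 5.75% each, and comp6138_c0, at 5.76%. The outermost member, comp7015_c0 (2317 bases), stood at 47.2, 45.7 and 47.6 CPM in the controls, at 49.0, 49.2 and 48.9 CPM after the anterior wound, and at 51.5, 53.5 and 44.4 CPM after the posterior wound. The first component outside, comp5349_c0 (1493 bases), stood at 55.2, 63.8 and 53.2 CPM in the controls, at 59.5, 60.0 and 57.2 CPM after the anterior wound, and at 59.4, 55.0 and 55.2 CPM after the posterior wound. At the first both extremes of the 9 libraries were posterior, and at the second both were controls, so each group with the extremes spanned the other groups.

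The members were spread over a wide range of levels. Their means ran from 22.1 to 936 CPM with a median of 99.8 CPM, against a median of 58.9 CPM for the eligible components. The highest was comp644_c0 (1809 bases), at 874, 929 and 966 CPM in the controls, at 890.3, 1006 and 1019 CPM after the anterior wound, and at 904, 889 and 951 CPM after the posterior wound. Next in level were comp503_c0 (1561 bases), at 824 ± 40.2 CPM (SD, n = 9), and comp877_c0 (2141 bases), at 818 ± 45.2 CPM (SD, n = 9). In the controls the level of comp503_c0 was lowest in replicate 1 (749.8 CPM, against 839.9 and 876 CPM), and that of comp877_c0 was highest there (897 CPM, against 806 and 773 CPM). The lowest levels belonged to comp13625_c0 (1450 bases), at 22.1 ± 1.04 CPM (SD, n = 9), and comp7654_c0 (974 bases), at 22.1 ± 1.27 CPM (SD, n = 9). Set per kilobase of contig, the members ranged from 11.2 to 607 CPM per kilobase with a median of 66.5, and the eligible components had a median of 47.3.

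Part of this variation is the error of counting reads, which is larger for rarer transcripts. Counting error alone, computed from each member's own reads, gave a coefficient of variation between 0.81% and 5.27%. The observed value was a median of 1.94 times this counting value at the members and 4.21 times at the eligible components. It lay below the counting value at 10 members, among them comp4801_c0 (2.47% against 4.23%), comp1077_c0 (2.48% against 3.84%) and comp2817_c0 (2.57% against 3.01%). Of the 3748 eligible components, these 10 were the only ones below it. The rule picks the lowest observed values, so nothing is read from this count. At comp544_c0 the observed 2.90% stood against 1.08%, and at comp644_c0 5.62% stood against 0.81%, so the abundant members varied by several times what counting gives. Components between 20 and 30 CPM were rarely chosen, 8 of 736 (1.09%), whereas above 500 CPM 13 of 147 (8.84%) were.

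**Figure D2:**
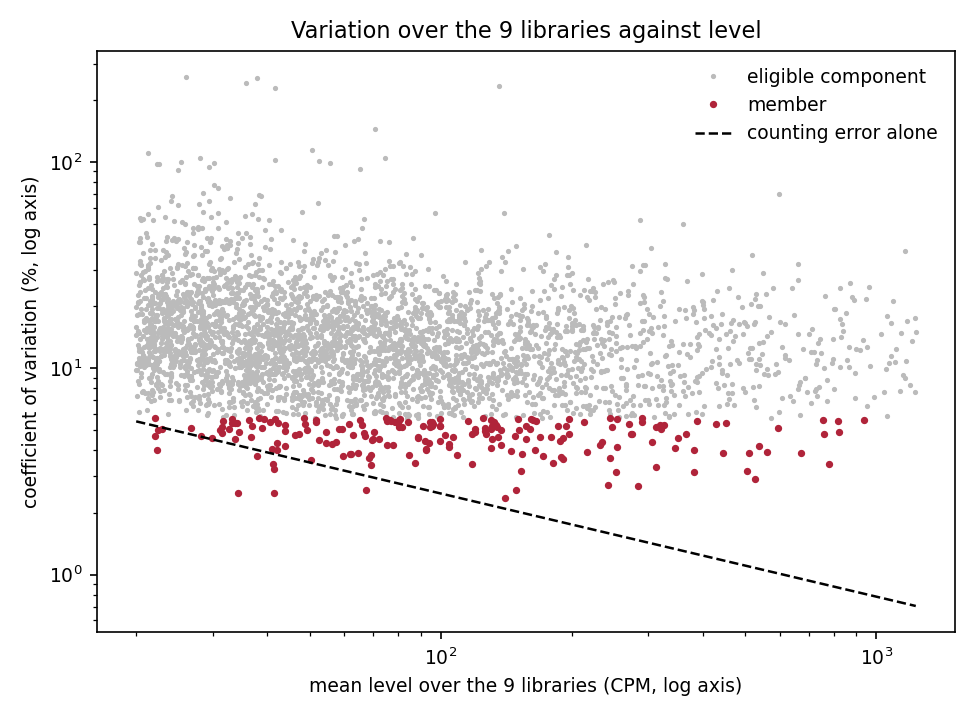
Coefficient of variation over the 9 libraries (y axis, percent, log axis) against mean level (x axis, CPM, log axis) for the 3748 eligible components (grey) and the 200 members (red). The dashed line is the variation that counting error alone gives at the mean depth of the libraries. The members form the lower edge at or below 5.74% at every level, close to the line at low levels and well above it at high levels.

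Summed, the members held between 3.16% of the reads in control replicate 2 and 3.32% in anterior replicate 2, with comp0_c0 left out of the total. In anterior replicate 2 the median member stood at 102.9% of its own mean, the highest of the 9 libraries, and in control replicate 2 at 98.4%, the lowest. The median distance of a member from its mean was between 2.62% in posterior replicate 1 and 4.41% in control replicate 1. For the eligible components it was 20.2% in control replicate 1, 11.3% in posterior replicate 3, and between 5.03% and 9.68% in the others. The highest library was control replicate 1 at 17.5% of the members, against 25.7% of the eligible components. It was anterior replicate 2 at 17.0% against 5.20%, and posterior replicate 3 at 16.5% against 23.6%. The lowest library was control replicate 1 at 40 of the 200 members, against 40.1% of the eligible components, and control replicate 2 at 18.5% against 10.3%.

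**Figure D3:**
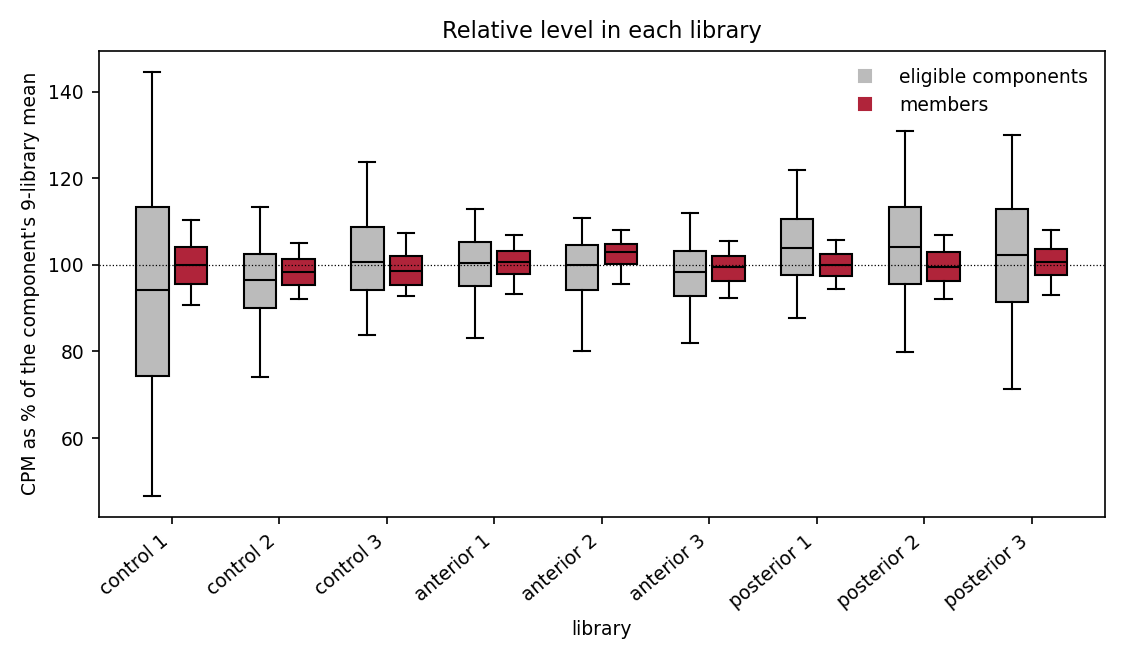
Level in each library (x axis) as a percentage of the component's own mean over the 9 libraries (y axis), for the eligible components (grey) and the members (red). Boxes span the quartiles, the line is the median, and whiskers run from the 5th to the 95th percentile. The eligible components spread most in control replicate 1, posterior replicate 3 and posterior replicate 2, while the members' medians lie between 98.4% and 102.9%.

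The largest single departures of a member were modest, which the rule builds in by its limit on variation. In control replicate 1, comp1499_c0 (1646 bases) stood at 131 CPM against 153 ± 4.84 CPM (SD, n = 8) in the other libraries. In posterior replicate 3, comp4148_c0 (2966 bases) stood at 28.8 CPM against 33.7 ± 0.79 CPM (SD, n = 8). Both were below the rest. In anterior replicate 3, comp7654_c0 stood at 19.5 CPM against 22.5 ± 0.83 CPM (SD, n = 8), and in control replicate 2, comp1731_c0 (1306 bases) stood at 167 CPM against 188 ± 7.00 CPM (SD, n = 8). In the other 5 libraries the farthest member was above its mean elsewhere. These were comp4818_c0 in control replicate 3 (29.8 against 26.4 CPM), comp2545_c0 in anterior replicate 1 (25.3 against 22.7 CPM), comp1518_c0 in anterior replicate 2 (173 against 155 CPM), comp2110_c0 in posterior replicate 1 (37.5 against 33.6 CPM) and comp3438_c0 in posterior replicate 2 (83.4 against 74.2 CPM).

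The remaining deviations of the members were most alike in a pair of posterior libraries. Across the 200 members, the log2 deviations from the mean in posterior replicates 1 and 2 correlated at r = 0.50. Next was the pair of control replicates 2 and 3 at 0.19, and the lowest pairs reached -0.33, where independent deviations that sum to 0 give -0.12. The eligible components gave r = 0.58 for the same posterior pair, 1 of 5 pairs above 0.5 of the 36, with the highest at 0.60 between control replicate 3 and posterior replicate 1. These are correlations across components within the same libraries, and components are not independent replicates.

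Between the groups, the members' means lay close together by construction. The highest group mean was a median of 1.05 times the lowest, and 1.12 times at most. The highest exceeded the lowest by less than 5% at 89 members and by more than 10% at 10. The share of a member's variance that lay between the groups had a median of 26.5%, and that of the eligible components one of 26.8%. With 3 groups of 3 libraries a share of this order arises even where groups do not differ. No effect of the wounds is read from it.

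Against the 0 h control, 0 of the 200 members were called after the anterior wound by the quasi-likelihood test of edgeR, adjusted after Benjamini and Hochberg, where 0.0281% of the 21322 components tested were called. None of the members passed at an unadjusted p under 0.05 (0), where 3.84% of all components did, and DESeq2 called 0 members. The rule for the members used this contrast, so nothing is read from these counts. DESeq2's counts over all components are given in the last section. The edgeR log2 values here and below use its default scaling of the libraries. CPM and statements on overlap use library totals without comp0_c0, so a log2 value can differ from the ratio of the printed CPM. The members' log2 fold changes ran from -0.10 to 0.19. The highest was at comp4909_c0 (2029 bases), which stood at 127, 118 and 122 CPM in the controls, at 141, 139 and 132 CPM after the anterior wound, and at 131, 135 and 129.8 CPM after the posterior wound. Every anterior library lay above every control. On the log2 scale the change was 0.19 (SE 0.10), with an adjusted p of 0.964 by edgeR. The second, comp1342_c0 (1344 bases), stood at 245, 254 and 265 CPM in the controls and at 291, 281 and 270.4 CPM after the anterior wound, a log2 fold change of 0.17 (SE 0.11).

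The lowest values after the anterior wound belonged to the rarest members. The component comp13625_c0 stood at 22.6, 22.3 and 23.8 CPM in the controls and at 20.9, 20.3 and 21.8 CPM after the anterior wound, a log2 change of -0.10 (SE 0.14). The component comp7654_c0 stood at 22.7, 23.1 and 22.9 CPM in the controls and at 22.6, 21.5 and 19.5 CPM after anterior wounding, a change of -0.08 (SE 0.14) on the log2 scale. At both the anterior libraries lay below all controls. Of the 200 members, 28 (14%) had every anterior library above every control, where 3.69% of all components tested did. Every anterior library lay below at 6 (3%), where 7.17% of all components did. The rule used these CPM, and the components tested include many that were not eligible. Nothing is therefore read from such counts, here and below.

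After the posterior wound, 0 members were called by edgeR, where 0.0281% of all components were. Again 0 members passed at an unadjusted p under 0.05, where 5.96% of all components did, and DESeq2 called 0 members. This contrast also entered the rule, so nothing is read from these counts. DESeq2's count over all components is in the last section. The log2 fold changes ran from -0.20 to 0.12. The component comp3861_c0 (1847 bases) stood at 130.3, 131 and 129 CPM in the controls, at 136, 138 and 139 CPM after the anterior wound, and at 145, 149 and 141 CPM after the posterior wound. Its 3 groups did not overlap in CPM, in the order control, anterior, posterior. In the edgeR fit its posterior log2 fold change was 0.12 (SE 0.10, adjusted p = 0.802 by edgeR) and its anterior one 0.11 (SE 0.10). The log2 difference between the wounds was -0.007 (SE 0.10), so the step from anterior to posterior was not seen on that scale. The component comp2133_c0 (1242 bases) stood at 156, 156 and 155 CPM in the controls and at 172, 173 and 172 CPM after the posterior wound, a log2 fold change of 0.11 (SE 0.11).

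At the other end, comp1827_c0 (2438 bases) stood at 323, 299 and 295 CPM in the controls, at 287, 284 and 293 CPM after the anterior wound, and at 281, 281 and 261 CPM after the posterior wound. Its posterior log2 fold change was -0.20 (SE 0.10, adjusted p = 0.78 by edgeR), and both wounds lay below all controls. The component comp2628_c0 (1482 bases) stood at 92.9, 102 and 99.4 CPM in the controls and at 93.4, 88.9 and 86.7 CPM after the posterior wound, a log2 fold change of -0.17 (SE 0.11), with an overlap at the first replicates. Every posterior library lay above every control at 23 members (11.5%), where 6.12% of all components did. All lay below every control at 8 (4%), where 4.57% did. Both wounds were set against the same 3 control libraries.

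Between the wounds, 0 members and 0% of all components were called by edgeR. At an unadjusted p under 0.05 there were 0 members and 581 components (2.72%), and DESeq2 called 0 members and 17 components. This contrast too entered the rule, so nothing is read from the members' counts. The component comp464_c0 (2046 bases) stood at 776, 767 and 757 CPM in the controls, at 821, 807 and 722 CPM after the anterior wound, and at 711, 715 and 710.4 CPM after the posterior wound. Its log2 difference, anterior over posterior, was 0.21 (SE 0.12), the largest among the members. The component comp542_c0 (1712 bases) stood at 103, 105 and 104 CPM after the anterior wound and at 94.1, 93.0 and 98.5 CPM after the posterior wound, a log2 difference of 0.20 (SE 0.12). At both the wounded groups did not overlap.

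The components comp5137_c0 (1464 bases) and comp5029_c0 (1364 bases) were the lowest in the edgeR fit, with log2 differences of -0.08 (SE 0.12) and -0.07 (SE 0.12). Their CPM, on the other scale, lay farther apart than these values. The first stood at 76.2, 76.5 and 79.5 CPM after the anterior wound and at 84.6, 82.1 and 88.9 CPM after the posterior wound, without overlap. The second stood at 94.9, 89.9 and 86.6 CPM after the anterior wound and at 101, 96.8 and 99.8 CPM after the posterior wound, also without overlap. Anterior libraries lay all above the posterior ones at 21 members (10.5%), where 2.46% of all components did, and all below at 12 (6%), where 9.38% did. Nothing is read from these counts either, since the rule used these CPM. The members' median log2 difference was 0.08 and positive at 180 of 200 by edgeR's default scaling (trimmed mean of M values, TMM). It was -0.01 when libraries were scaled by their total reads. The rule chose members for steadiness on close to that scale, so a value near 0 there is built in. The median over all 21322 components was -0.0037 under TMM.

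The errors in these fits are wider than the members' own spread. edgeR shares information on the spread between components of similar level, and its estimated biological coefficient of variation had a median of 13.0% at the members, 16.4% at the eligible components and 25.3% over all components. The median SE of a member's log2 fold change was 0.12 in each comparison.

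In the authors' deposited table of DESeq results, the 200 members had fold changes between 0.95 and 1.16 after the anterior wound, with a median of 1.06. The same quantity for the posterior wound in the authors' deposited table ran between 0.861 and 1.07, with a median of 0.974. Every adjusted p of a member in the authors' deposited table was 1.0. Over all components, the authors' deposited table has 9 of 45336 with an adjusted p under 0.05 for the anterior wound and 23 of 45486 for the posterior wound, so nothing is read from the members' value. The medians of the eligible components in the authors' deposited table were 1.06 and 1.01. These values come from the same libraries that chose the members.

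Whether steadiness carries over to libraries that took no part in the choice was read by choosing 200 components again with a library left out or on a single group. These sets are not the members: they share 95 components with them without control replicate 1, 153 to 179 without another library, and 61, 28 and 45 when chosen on the control, anterior and posterior group. Chosen on the 8 libraries other than control replicate 1, the components lay a median of 14.4% away from their mean in that library, against 22.7% for the components eligible there. Of them, 62 of 200 were off by more than 20%, against 55.2% of those eligible. For each other library left out, the chosen components were off by a median of 3.73% to 5.78%, against 5.70% to 12.7% for those eligible. The number off by more than 20% was then at most 9 of 200, in posterior replicate 3, where 29.9% of the eligible components were.

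Chosen on the 3 controls alone, 200 components had a median coefficient of variation of 2.15% there and of 7.18% over the 6 wounded libraries, where the eligible components had 9.23%. Chosen on the anterior libraries they went from 1.09% to 12.3% in the other 6 libraries, where the eligible components had 14.9%. Chosen on the posterior libraries they went from 1.27% to 10.3%, where the eligible components had 12.3%. Among the 200 chosen on a group, between 20 and 22 were also among the 200 lowest in the other 6 libraries, at most 11%, where 5.22% to 5.43% of the eligible components were. The chosen components were more abundant than the eligible ones (a median of 75.5 against 57.9 CPM for the controls). When the eligible components were divided into classes of level with equal numbers, the chosen ones varied less than the eligible ones of their class in the other libraries in 11 of 12 combinations of group and class. The exception was the lowest class for the posterior choice, at 16.6% against 16.5%. These combinations share libraries, so they are not independent of each other. For the anterior and posterior choices the other libraries include control replicate 1, and the comparison by class was not repeated without it.

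Without control replicate 1, components chosen on control replicates 2 and 3 had a median of 7.80% over the 6 wounded libraries, against 9.20% for those eligible. The anterior choice had 8.42% against 10.6% over the other 5 libraries, and the posterior choice 6.30% against 7.46%. Also among the 200 lowest in the other libraries were then 9 of 200 for the control choice, a share below the background of 5.31%. The number was 18 of 200 for the anterior choice, with a background of 5.43%, and 13 of 200 for the posterior choice, with a background of 5.22%. The control choice then used 2 libraries in place of 3, so the loss of that library and the smaller number cannot be told apart.

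Contig length, which the rule did not use, differed between the members and the rest. Members had a median of 1479 bases, with quartiles at 1147.5 and 1858.5, and the eligible components one of 1359.5 bases, with quartiles at 874 and 2040.0. The shortest member was comp3435_c0 at 575 bases (58.4 ± 2.97 CPM, SD, n = 9). The longest was comp2337_c0 at 5111 bases, which stood at 306, 324 and 342 CPM in the controls, at 302, 311 and 336 CPM after the anterior wound, and at 317, 341 and 301 CPM after the posterior wound. Of the 239 eligible components under 500 bases, 0 were members. The share was 8.23% between 1000 and 1500 bases (76 of 923) and 8.33% between 1500 and 2000 bases (55 of 660). It was 1.07% from 3000 bases on (4 of 375), and these 4 were comp2337_c0 and, named after their values were seen, comp2980_c0, comp156_c0 and comp2333_c0. Above 150 CPM, 14.4% of the eligible components between 1000 and 2000 bases were members, as were 15.3% of those between 2000 and 3000 bases, 1.5% of those under 1000 bases and 2.63% of those from 3000 bases on.

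The libraries differed from each other along contig length. In control replicate 1, the median distance of eligible components from their own mean was -29.99% under 500 bases and 14.3% from 3000 bases on. Posterior replicate 3 had the opposite order, 21.9% and -21.8%. In posterior replicate 2 the values were -5.17% and 19.1%. Between 1500 and 2000 bases, the medians of all 9 libraries lay between -4.23% and 5.75% of the mean. For the members, medians in every library and every class of length that holds any lay between -4.04% and 4.16%. The rule chose members for small variation over these libraries, so this narrow range is built in. Chosen without control replicate 1, the share was 1.55% between 500 and 1000 bases, 7.34% between 1000 and 1500 bases, 11.2% between 1500 and 2000 bases and 1.34% from 3000 bases on. Whether length has a part in which components are steady was not tested.

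**Figure D4:**
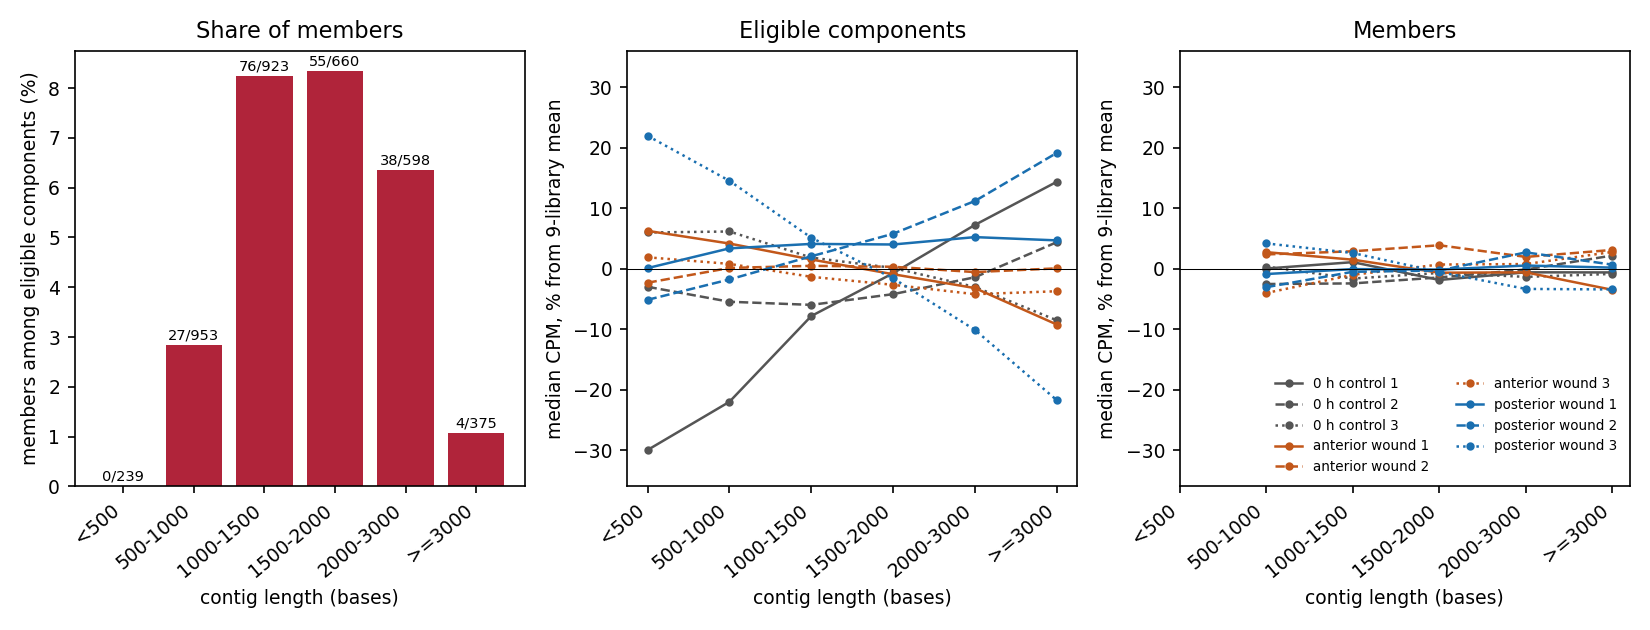
Contig length in 6 classes (x axis, bases) against the share of eligible components that are members (left, percent, with the counts above the bars) and against the median distance from the component's 9-library mean in each library (percent) for the eligible components (middle) and the members (right). Lines are libraries, grey for the 0 h control, orange for the anterior wound and blue for the posterior wound, solid, dashed and dotted for replicates 1, 2 and 3. Members were most frequent between 1000 and 2000 bases, where the library lines of the eligible components lie closest together. The members' own lines lie near 0 by the rule that chose them.

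The set depended on how library size was defined. When comp0_c0 was kept in the total, 125 of the 200 lowest were members. With library sizes scaled by TMM the number was 61, and with DESeq2's size factors it was 16. The 139 components chosen under TMM that are not members had a median of 2209 bases, and the 184 chosen under DESeq2's size factors one of 2568 bases. Contigs from 3000 bases on numbered 22 and 56 in these choices, against 4 among the members. The members' median coefficient of variation became 7.39% under TMM and 9.80% under DESeq2's size factors, where the eligible components had 13.6% and 15.1%. All scalings use the same reads, and none of these choices is a test of another.

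The scalings differed most after the posterior wound. Library sizes given by the members' summed reads were 89.7% of those given by TMM in posterior replicate 2 and 109.0% in posterior replicate 3, and between 94.4% and 106.5% elsewhere. DESeq2's size factors were 116.7% of the members' in posterior replicate 2 and 85.5% in posterior replicate 3. Of the 8 steadiest, 6 were also chosen under TMM, all but comp4801_c0 and comp1077_c0, the shortest of the 8. Under DESeq2's size factors 1 of them was chosen, comp1397_c0.

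Leaving out control replicate 1 changed the set more than leaving out any other library. Without it, 95 of the 200 lowest were members, and without any other library 153 to 179 were. The median length without it was 1596 bases. There were 83 members in all 9 of these choices, including each of the 8 steadiest. When only the spread within groups counted, 122 were members. In all 20 alternative choices 2 members remained, comp1397_c0 and comp1564_c0 (2580 bases), the second named after its values were seen. The latter stood at 329.6, 352 and 331 CPM in the controls, at 345, 360.5 and 363 CPM after the anterior wound, and at 366, 376 and 339 CPM after the posterior wound, with overlap between the groups.

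**Figure D5:**
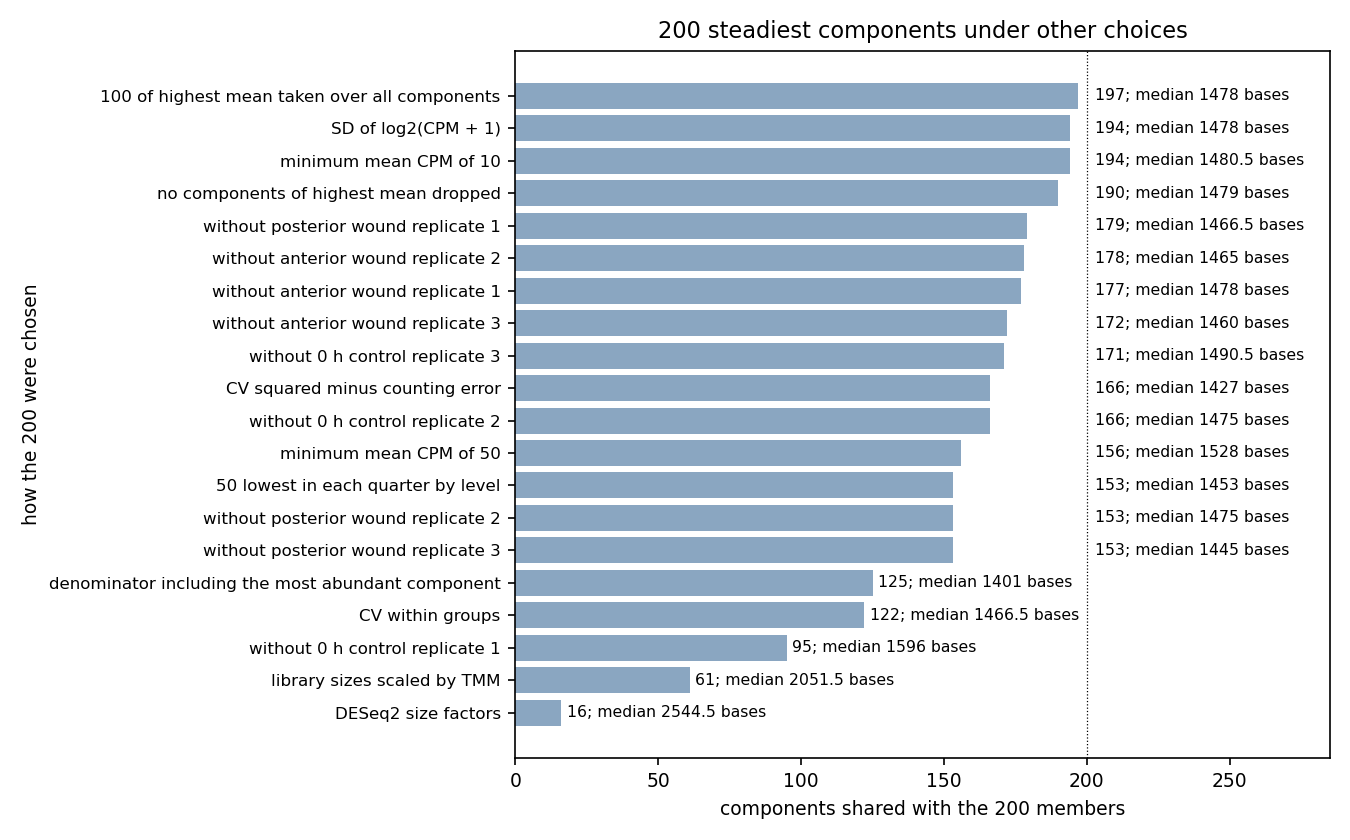
Number of components shared with the 200 members (x axis) when 200 were chosen in 20 other ways (y axis), with that number and the median contig length of each choice printed at the bar. The dotted line marks 200. Choices by TMM and DESeq2's size factors share 61 and 16 components with the members and hold longer contigs.

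The assembler's cluster held a further component at 3 members (1.5%) and at 1.36% of the eligible components. It held another member in 0 cases. These 3, named after their values were seen, are comp484_c0 at 346 ± 14.2 CPM, comp3415_c0 at 72.2 ± 3.27 CPM and comp2082_c0 at 107 ± 4.95 CPM (SD, n = 9 each).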

How the data were processed

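Reads were aligned with Bowtie2 2.0 and handled with SAMtools, per the submitters' processing notes. Of the assembly only the identifiers were at hand. Each library's deposited file gives the count of mapped reads per contig, beside contig length in bases and a count of unmapped reads. A deposited DESeq table gives the authors' ratio (fold) and p-value of each wound against the control.

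Counts of contigs were summed per component from the per-library files. Where the rule drops the 100 of highest mean, these were taken among single-contig components. Tests of the groups used R 4.3.3 and its package edgeR 4.0.16: TMM scaling, filterByExpr, 1 quasi-likelihood fit of the 3 groups over 9 libraries, Benjamini-Hochberg adjustment over 21322 components and calls at 0.05. SE is the log2 fold change over the square root of F. All 200 members passed the filter. DESeq2 1.42.0 was an alternative. The fit and the choice were tested on simulated data. Unmapped reads stayed out of library sizes. Unassigned columns of values numbered 0.

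Libraries of a group differed beyond counting noise (chi-square over its degrees of freedom from 5.66 to 56.2 over all components, 1.58 to 9.20 over the members). Nothing in the labels says that they came from separate animals, so a p-value reflects only how these libraries differ, possibly for technical reasons. Components were named by rules on rank of variation, level, length, fold change and distance in a library; others are said to be named after their values were seen. The members, lists and rules were chosen with earlier results of these data known.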

Additional observations from a re-analysis of the deposited data

How the results depend on the processing

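The 200 components chosen shared 125 with the members when comp0_c0 stayed in the total, 122 when spread within groups was ranked, 61 under TMM, 16 under DESeq2's size factors, and 95 (without control replicate 1) to 179 with each library left out. The other alternatives shared 153 to 197. The median coefficient of variation of the members was 7.39% under TMM and 9.80% under DESeq2's size factors, and 4.42% to 4.93% with each library left out. The cause was not tested.

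Members called stayed at 0 in all 3 comparisons under every alternative run. The rule chose the members for small variation over these libraries, so a low count is built in and nothing is read from it. Of the 21322 components tested by edgeR, 6, 6 and 0 were called for the anterior wound, the posterior wound and the wounds against each other. DESeq2 called 25, 56 and 17, and scaling to the members' reads called 1 after the anterior wound. Leaving out each library gave 1 to 4, 2 to 292 (the last without control replicate 3) and 0. The anterior count was 3 without control replicate 1, 1 without control replicate 2 or any anterior replicate, and 2 to 3 without a posterior replicate. The posterior count was 9 without control replicate 1, 2 without control replicate 2 or posterior replicate 1, and 3 without any anterior replicate or posterior replicate 2. The fit with a replicate block called 5, 8 and 0 components and 0 members. Same-number pairs correlated above 0.1 in 3 of 9 cases and a library's best partner had its own number in 4 of 9. Control and posterior replicates 3 reached 0.45, and control and posterior replicates 2 reached 0.35, against at most 0.24 for pairs of unlike number. The lowest same-number pair was -0.24. These values do not decide whether the numbers pair some of the libraries.

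The members' median log2 fold change after the anterior wound, 0.06 under TMM, was -0.0034 with scaling to the members' reads and -0.014 with library totals, and 0.036 to 0.088 with each library left out. Between the wounds it was -0.0041 and -0.011 under these scalings and -0.0063 (without posterior replicate 2) to 0.18 (without posterior replicate 3). Values near 0 under both scalings are built in. One scales to the members themselves, and the other is close to the totals on which the rule chose them. After the posterior wound the members' median was -0.02 under TMM, and -0.11 (without posterior replicate 3) to 0.056 (without posterior replicate 2) with each library left out. Without control replicate 1 these medians were 0.067, 0.079 and -0.0052 for the anterior wound, the wounds against each other and the posterior wound. Mean levels of the 38 named components stayed within 1 SD under TMM, with library sizes set to the same geometric mean. Leaving out 1 of 9 libraries cannot move a mean by 1 SD, so nothing is read from that alternative. All 38 moved by more than 1 SD when comp0_c0 stayed in the total. Every CPM of a library then falls by the 9.19% to 16.9% that comp0_c0 holds, and so each mean falls too. The share differs between libraries, so their levels relative to each other also change. The members' highest coefficient of variation went from 5.74% to 8.31%. Counting error alone reaches 5.27% at the rarest member, so depth limits how finely members of low level can be ranked.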
